A study of Mus musculus with 14 samples.

Results

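Mitosis and G2 phase genes were followed in mouse intestinal organoids and in stem cells sorted from them, after Isx-9 and after its vehicle DMSO. The set is a list of 32 named genes, matched by symbol, and all 32 were found among the 27399 genes of the bulk table and in each of the 4 single-cell matrices. Its members are cyclins, CDK1 and mitotic kinases (Ccna2, Ccnb1, Ccnb2, Cdk1, Cdkn3, Plk1, Aurka, Pbk), the chromosomal passenger complex (Aurkb, Birc5, Cdca8), kinetochore and spindle checkpoint proteins (Bub1, Bub1b, Ttk, Mad2l1, Cenpa, Cenpe, Cenpf, Knstrn), activators of the anaphase-promoting complex (Cdc20, Ube2c), spindle motors and microtubule proteins (Tpx2, Kif11, Kif20a, Kif23, Kif2c, Nusap1, Prc1, Hmmr, Ckap2l) and mitotic chromosome proteins (Mki67, Top2a). According to the series title, the study asked whether Isx-9, a small molecule, brings about differentiation of enteroendocrine cells, which release hormones from the gut lining.

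Intestinal organoids are three-dimensional epithelial cultures that grow from crypt stem cells, here in medium with EGF, Noggin and R-spondin1. The bulk libraries came from stem cells sorted out of Lgr5-EGFP knock-in organoids, 2 libraries after 6 hours of 25 µM Isx-9 and 2 after 6 hours of 0.05% DMSO. The single-cell libraries came from whole organoids, 1 library each of Chgb-mCherry knock-in reporter organoids after 6 days of 25 µM Isx-9, the same reporter organoids after 6 days of 0.05% DMSO, untreated reporter organoids and untreated wild-type organoids. Treatment began on day 2 after passaging. The bulk stem cells and the single-cell organoids therefore differed in genotype, in the cells sampled and in time, and the fluorescent reporter marks Lgr5, a stem cell receptor, in the bulk cells and Chgb, a granin of enteroendocrine cells, in the organoids.

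As background, cells that have copied their DNA enter mitosis when cyclin B with CDK1 becomes active, helped by Plk1 and Aurora A. Kinetochores, which form on centromeres marked by Cenpa, attach to spindle microtubules under the watch of the checkpoint kinases, and the anaphase-promoting complex with Cdc20 then destroys cyclin B and securin so that chromosomes part. RNA of most of these genes accumulates from S phase to mitosis and is low in resting cells, so in the gut it marks dividing stem and transit-amplifying cells of the crypt, while enteroendocrine cells are mostly post-mitotic.

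The promoters of such genes commonly carry CCAAT boxes, the sites of NF-Y, and a short element near the start of transcription known as the cell cycle genes homology region, written TTTGAA or TTTAAA, to which the MuvB core of the DREAM complex binds. RefSeq promoter windows of GRCm38.p6, 250 bases before to 50 after each start, were at hand for 27 of the 32 members. Both strands were searched and every match was counted. TTTGAA or TTTAAA stood in 23 of the 27 genes, which is 85.7% of their 28 starts, against 27.6% of 32851 starts of all genes. CCAAT stood in 22 of the 27, or 82.1% of the member starts against 37.4% of all starts, and 16 of the 27 held at least 2 copies. The 2 kinds of motif stood together in 21 members, 78.6% of the member starts against 10.7% of all starts. In 19 members a TTTGAA or TTTAAA began no more than 50 bases before the start or after it. Windows of 180 bases, from 160 before to 20 after the start, are given for 6 members that the results below turn on. They are Cdkn3 (ENSMUSG00000037628, chr14:46760381-46760560, plus strand), the only member that rose in bulk, Cdc20 (ENSMUSG00000006398, chr4:118437324-118437503, minus strand) and Ube2c (ENSMUSG00000001403, chr2:164769769-164769948, plus strand), which fell, Ccnb1 (ENSMUSG00000041431, chr13:100786467-100786646, minus strand) and Cdk1 (ENSMUSG00000019942, chr10:69352893-69353072, minus strand), which together drive entry into mitosis, and Prc1 (ENSMUSG00000038943, chr7:80294291-80294470, plus strand), which had the highest ratio in Top2a-positive cells. Capitals mark TTTGAA or TTTAAA and CCAAT or, for matches on the other strand, TTCAAA and ATTGG.
Cdkn3: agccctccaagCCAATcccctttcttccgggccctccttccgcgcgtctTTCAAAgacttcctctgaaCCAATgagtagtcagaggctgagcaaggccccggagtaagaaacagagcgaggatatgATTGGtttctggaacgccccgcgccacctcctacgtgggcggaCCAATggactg
Cdc20: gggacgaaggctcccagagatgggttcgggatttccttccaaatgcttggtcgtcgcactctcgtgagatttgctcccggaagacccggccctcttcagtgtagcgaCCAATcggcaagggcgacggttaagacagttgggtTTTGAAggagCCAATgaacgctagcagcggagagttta
Ube2c: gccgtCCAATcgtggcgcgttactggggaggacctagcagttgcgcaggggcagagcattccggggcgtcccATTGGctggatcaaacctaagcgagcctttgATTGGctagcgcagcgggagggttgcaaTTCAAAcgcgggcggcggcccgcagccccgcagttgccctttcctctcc
Ccnb1: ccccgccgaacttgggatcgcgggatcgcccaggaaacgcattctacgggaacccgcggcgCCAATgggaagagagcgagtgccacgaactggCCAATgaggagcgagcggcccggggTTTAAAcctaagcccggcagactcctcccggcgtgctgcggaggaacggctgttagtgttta
Cdk1: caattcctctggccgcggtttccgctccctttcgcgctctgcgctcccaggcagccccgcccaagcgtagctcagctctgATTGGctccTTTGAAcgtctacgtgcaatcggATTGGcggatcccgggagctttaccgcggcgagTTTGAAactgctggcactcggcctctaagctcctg
Prc1: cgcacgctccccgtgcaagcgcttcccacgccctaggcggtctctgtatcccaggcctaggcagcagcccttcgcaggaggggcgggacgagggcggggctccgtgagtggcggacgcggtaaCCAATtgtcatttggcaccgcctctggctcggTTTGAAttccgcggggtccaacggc
All 6 hold both kinds of motif. A match is a run of letters and not a measured site, and none of the values below was tested against it.

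Sequencing depth was even in bulk, at 19025875 and 19431905 counts in the Isx-9 libraries and 19487264 and 18909542 in the DMSO libraries. The treatments still stood apart in complexity, with 23881 and 23695 genes detected in Isx-9 libraries and 21237 and 20942 in DMSO libraries, and TMM factors were 1.06 and 1.03 in Isx-9 and 0.95 and 0.96 in DMSO libraries. The part of this in the members' values was not tested. Single-cell depth was not even, with a median of 8890 UMIs per cell in 9207 kept Isx-9 cells, 13385 in 8968 DMSO cells, 12633 in 9610 untreated reporter cells and 15007 in 8744 untreated wild-type cells. The doublet caller Scrublet removed 809 cells, or 8.08%, of the Isx-9 library and at most 1 cell of each other library. Whether it missed doublets there or called too many in Isx-9 was not tested. Of the 806 called Isx-9 doublets deep enough to thin to 3000 UMIs, 135 were Top2a-positive. Values with the called doublets kept are given for the share of Top2a-positive cells and for the members' ratios over all cells and in Top2a-positive cells. The other single-cell values were computed without the called doublets only. Pairs of libraries shared 32 to 52 cell barcodes, or 0.26% to 0.43% of the deposited cells of the first library of a pair. The sorted cells carried their defining marker, with 6266 and 6424 Lgr5 counts in the Isx-9 libraries and 7017 and 6182 in the DMSO libraries.

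In stem cells after 6 hours of Isx-9, 12 of the 32 members fell, 1 rose and 19 did not pass the test (edgeR's quasi-likelihood test, Benjamini-Hochberg adjustment over 17418 genes, threshold 0.05). All 32 passed the filter on low counts. Those that fell were led by the late mitotic motors Kif20a and Kif23, the anaphase activator Cdc20 and the passenger complex subunit Cdca8, each by 0.40 to 0.45 on the log2 scale. The exception in direction was Cdkn3, a phosphatase of cyclin-dependent kinases, which rose by 0.62. Mki67, the proliferation antigen, did not pass at -0.01 (SE 0.07), and neither did Top2a, the topoisomerase that untangles sister chromatids, at -0.15 (SE 0.07).

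The share called must be read against all genes. In the same comparison 20% of the 17418 tested genes fell and 27.3% rose, 47.3% in all, and among the 9471 genes whose DMSO level lay within the members' own range of 11.4 to 862 CPM (counts scaled to 1000000 per library with TMM factors) 34.7% fell and 14% rose. The 12 of 32 members that fell are thus close to the share among genes of their level. The members' median log2 fold change was -0.17, against 0.02 over all tested genes and -0.16 over genes within their range of level. Summed over the 32 members, the level was 4659 and 4630 CPM in the Isx-9 libraries and 5214 and 5137 CPM in the DMSO libraries. In bulk RNA, fewer dividing cells and less of each transcript per dividing cell cannot be told apart.

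**Figure D1:**
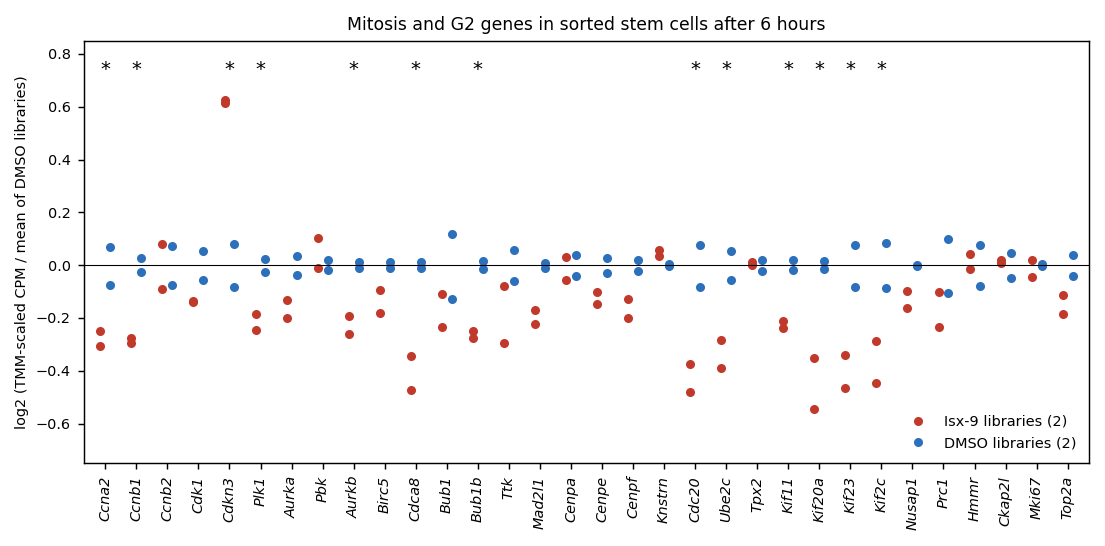
Each point is 1 bulk library, shown as the log2 ratio of a member's TMM-scaled CPM to the mean of the 2 DMSO libraries, with Isx-9 libraries left of DMSO libraries and members ordered by role. Asterisks mark the 13 members that passed the edgeR test, 12 lower and Cdkn3 higher, and the Isx-9 points of Kif20a, Cdc20, Kif23 and Cdca8 sit lowest.

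Libraries of the 2 treatments separated for most members. Both Isx-9 libraries lay below both DMSO libraries for 21 members, against a background of 34.8% of all tested genes, and above them for Cdkn3 and Knstrn, against 38.9%. The libraries of the other 9 members overlapped. These background shares are over genes of all levels, and those among genes of the members' own level were not computed. No member but Cdkn3 moved by more than 0.45 on the log2 scale.

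Among cyclins, CDK1 and mitotic kinases 3 of 8 fell and 1 rose. Cyclin B1, the partner of CDK1 at mitotic entry, had 114 and 115 CPM of Ccnb1 in Isx-9 libraries and 142 and 137 CPM in DMSO libraries. It fell by 0.28 (SE 0.08, edgeR adjusted p = 0.0099), with no overlap between treatments. Plk1, the kinase that matures centrosomes, had 149 and 155 CPM in Isx-9 libraries and 173 and 179 CPM in DMSO libraries. Its fall of 0.22 (SE 0.07, edgeR adjusted p = 0.035) was lost under 8 of 9 alternatives, where the adjusted p ran from 0.042 to 0.365. Ccna2, cyclin A2 of S and G2 phase, fell by 0.28 (SE 0.08, edgeR adjusted p = 0.012) in the same direction in both libraries. Cdk1 itself stood at 103 and 103 CPM in Isx-9 libraries and 117 and 109 CPM in DMSO libraries. Those values do not overlap, yet the difference of -0.14 (SE 0.08, edgeR adjusted p = 0.193) did not pass. Aurka, the centrosomal Aurora kinase, had 63.9 and 67.1 CPM in Isx-9 libraries and 71.6 and 75.2 CPM in DMSO libraries and did not pass either (-0.16, SE 0.09, edgeR adjusted p = 0.155). Ccnb2 and Pbk, a mitotic kinase, had overlapping libraries and log2 values of 0.00 and 0.05.

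Cdkn3 was the member with the largest change. Its counts were 351 and 353 in the Isx-9 libraries and 200 and 219 in the DMSO libraries. That is 17.5 and 17.6 CPM in Isx-9 libraries and 10.8 and 12.1 CPM in DMSO libraries, the 2 Isx-9 values nearly equal and both well above DMSO. The log2 fold change was 0.62 (SE 0.17, edgeR adjusted p = 0.011), and the adjusted p ran from 0.004 to 0.058 over 9 alternatives. With either Isx-9 library left out it no longer passed.

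Of the chromosomal passenger complex, which corrects faulty kinetochore attachments and guides cytokinesis, 2 of 3 fell. Cdca8, known as borealin, had 93.1 and 85.1 CPM in Isx-9 libraries and 119 and 117 CPM in DMSO libraries, and it fell by 0.41 (SE 0.08, edgeR adjusted p = 0.0021). The kinase subunit Aurkb fell by 0.23 (SE 0.08, edgeR adjusted p = 0.041) but lost its call under all 9 alternatives, with adjusted p from 0.054 to 0.372. Survivin, encoded by Birc5, did not pass at -0.14.

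Of the 2 activators of the anaphase-promoting complex both fell. Cdc20 had 101 and 109 CPM in Isx-9 libraries and 149 and 133 CPM in DMSO libraries. The 2 Isx-9 libraries lay well below, with a fall of 0.43 (SE 0.09, edgeR adjusted p = 0.0019). Ube2c, the ubiquitin-conjugating enzyme of the complex, had 140 and 150 CPM in Isx-9 libraries and 190 and 176 CPM in DMSO libraries and fell by 0.34 (SE 0.08, edgeR adjusted p = 0.0051).

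All 4 motors of the spindle group fell, while Cenpe, a motor counted with the kinetochore genes, did not pass (-0.12). Kif20a, which carries the passenger complex to the spindle midzone, had 88.6 and 101 CPM in Isx-9 libraries and 131 and 128 CPM in DMSO libraries, a fall of 0.45 (SE 0.09, edgeR adjusted p = 0.0016). Kif23, the centralspindlin motor, had 117 and 128 CPM in Isx-9 libraries and 171 and 153 CPM in DMSO libraries, a fall of 0.40 (SE 0.09, edgeR adjusted p = 0.0028). Both work in late mitosis. Kif2c, a microtubule depolymerase at centromeres, had 52.0 and 46.5 CPM in Isx-9 libraries and 67.1 and 59.6 CPM in DMSO libraries and fell by 0.36 (SE 0.10, edgeR adjusted p = 0.014). Kif11, the motor that pushes spindle poles apart, fell by 0.22 (SE 0.07, edgeR adjusted p = 0.024). The other 5 members of the group (Tpx2, Nusap1, Prc1, Hmmr, Ckap2l), which bind or bundle microtubules, did not pass and had log2 values from -0.17 to 0.01.

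Of kinetochore and checkpoint genes 1 of 8 fell. That was the checkpoint kinase homologue Bub1b, lower by 0.26 (SE 0.07, edgeR adjusted p = 0.013). The centromeric histone Cenpa had 106 and 113 CPM in Isx-9 libraries and 107 and 113 CPM in DMSO libraries, a difference of -0.01 (SE 0.08, edgeR adjusted p = 0.923). The values of the 2 treatments interleave. Bub1, Ttk, Mad2l1, Cenpe, Cenpf and Knstrn, a kinetochore adaptor, did not pass, at -0.20 to 0.05.

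Neither mitotic chromosome protein passed. Mki67 had 873 and 835 CPM in Isx-9 libraries and 860 and 863 CPM in DMSO libraries, and the DMSO values lie inside the Isx-9 range. Top2a had 622 and 592 CPM in Isx-9 libraries and 692 and 655 CPM in DMSO libraries (edgeR adjusted p = 0.114), without overlap.

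Ratios between members within a library do not depend on the scaling. Per 100 counts of Mki67 there were 10.1 and 12.1 counts of Kif20a in Isx-9 libraries and 15.2 and 14.8 in DMSO libraries. For Cdc20 the same ratio was 11.6 and 13.0 in Isx-9 libraries and 17.3 and 15.5 in DMSO libraries. Cdkn3 went the other way, with 2.00 and 2.11 per 100 Mki67 counts in Isx-9 libraries and 1.25 and 1.40 in DMSO libraries. Top2a stood at 71.2 and 70.9 per 100 Mki67 counts in Isx-9 libraries and 80.5 and 75.9 in DMSO libraries. Kif20a, Cdc20 and Cdkn3 are the members of largest change in these libraries, so their ratios restate that change. The ratios show unequal change relative to Mki67 and not which of the genes moved.

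The count of members that fell depended on scaling and on single libraries. Scaling by library size alone moved the median of all tested genes to 0.14 and left 5 members lower and 1 higher, with a median of -0.04 over the members, which is 0.18 below all genes, as in the TMM scaling. Without Isx-9 replicate 1 there were 5 lower and 0 higher, and without Isx-9 replicate 2 there were 6 and 0, the lone Isx-9 library being assumed to vary as the DMSO pair did. Cdca8, Cdc20, Kif20a and Kif23 kept their calls under all 9 alternatives. Ube2c lost its call under 1, Ccnb1, Ccna2 and Kif2c under 3 and Bub1b and Kif11 under 4 of the 9. By the authors' deposited table, 10 members were lower and 1 higher at an adjusted p under 0.05.

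Some lists of cell type markers moved with treatment in these libraries. All 4 tested mesenchymal markers of a list of 7 rose (Vim, Col1a1, Pdgfra, Pdgfrb), and the summed level of the list was 57.9 and 40.1 CPM in Isx-9 libraries and 5.87 and 7.27 CPM in DMSO libraries. Dcn, a fibroblast proteoglycan, had no count in either Isx-9 library and Col3a1 had 6 and 0, against 1 and 0 counts of Dcn and 0 and 2 of Col3a1 in DMSO libraries. Of 10 stem cell markers 7 fell and 1 rose, with sums of 7848 and 6574 CPM in Isx-9 libraries and 10197 and 10078 CPM in DMSO libraries. No goblet or Paneth marker passed, of 7 in each list. Of 10 enteroendocrine markers 2 rose and 1 fell, and of 10 enterocyte markers 1 rose and 2 fell. Of 6 tested tuft markers 2 rose, and of 3 tested immune markers 1 fell. Over all tested genes 27.3% rose and 20% fell. The part of the marker shifts in the members' values was not tested.

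In each of 9 companion lists of the wider mitotic and S phase machinery more genes fell than rose in bulk, as genes of the members' level did at large (34.7% lower and 14% higher). Of 14 genes of mitotic entry and the G2 checkpoint 8 fell and 1 rose. Wee1, the kinase that holds CDK1 inactive, fell by 0.64, its phosphatase counterpart Cdc25a fell by 0.62, the Greatwall kinase Mastl fell by 0.47 and Pkmyt1, a second inhibitory CDK1 kinase, fell by 0.44. The gene that rose was Cdc25b (0.30). Wee1 and Pkmyt1, which inhibit CDK1, and Cdc25a, which activates cyclin-dependent kinases, thus all fell. Of 17 genes of the anaphase-promoting complex and its regulators 5 fell and 0 rose, among them the coactivator Fzr1 (-0.42) and the subunits Anapc7 (-0.42), Anapc2 (-0.41) and Anapc1 (-0.38).

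Of 22 kinetochore and checkpoint genes outside the members 5 fell and 0 rose, led by Pmf1 (-0.61), Zwilch (-0.56), Trip13 (-0.49) and Mad1l1 (-0.34), and of 17 centromere proteins 3 fell (Cenpp -0.61, Oip5 -0.60, Cenph -0.48). Mad1l1, Cenpp and Cenph each lost the call under 6 of 9 alternatives, with adjusted p up to 0.328, 0.275 and 0.147, and Trip13 and Oip5 under 1. Spindle and cytokinesis genes counted 8 lower and 0 higher of 18, led by Tacc3 (-0.57), Numa1 (-0.55), Incenp (-0.43) and Spag5 (-0.39), all proteins of the spindle, its poles or the passenger complex. Centrosome genes counted 9 lower and 2 higher of 20, with Haus8 at -0.62, Cep152 at -0.57, Pcnt at -0.52 and Haus4 at -0.44.

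Condensin, cohesin and separase genes counted 9 lower and 2 higher of 19. Securin, the separase inhibitor encoded by Pttg1, rose by 1.02, with a mean level of 23.6 ± 1.15 CPM in Isx-9 libraries and 11.7 ± 0.85 CPM in DMSO libraries (SD, n = 2 each). Sororin, encoded by Cdca5, fell by 0.61, the cohesin regulator Pds5b rose by 0.49 and the condensin II subunit Ncaph2 fell by 0.41. Among 22 transcriptional regulators of G2 and mitosis genes 8 fell and 2 rose. Mybl2, the B-Myb activator that joins MuvB, fell by 0.68, E2f4 of the repressive DREAM complex fell by 0.54, and the repressors E2f7 and Rb1 rose by 0.67 and 0.64. Foxm1, the other main activator, did not pass at -0.14. Of 12 S phase genes 10 fell and 0 rose, led by Mcm5 (-0.68), Mcm7 (-0.65), Mcm4 (-0.58) and Tk1 (-0.57).

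After 6 days in whole organoids every one of the 32 members was at least 1.5-fold lower with Isx-9. There was 1 library per condition, so these ratios carry exact 95% intervals for counting error only and no test. The 32 genes summed to 1078 CPM (UMIs scaled to 1000000 over the summed cells) in Isx-9 cells and 2243 in DMSO cells, a ratio of 0.481 (0.477 to 0.484). In untreated reporter cells the sum was 2438 and in untreated wild-type cells 2465. The Isx-9 library thus stood apart from all 3 others. With the called doublets kept the ratio was 0.490, and with each cell weighted equally, an alternative added after seeing the data, it was 0.381.

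The members' ratios ran from 0.35 to 0.64 with a median of 0.49. Over the 14419 genes with at least 100 UMIs the median ratio was 1.28, and 9.72% of them were at least 1.5-fold lower and 40.1% at least 1.5-fold higher. These values are over genes of all levels, and those among genes of the members' own level were not computed. Between the control libraries no member passed 1.5-fold. The ratio of DMSO to untreated reporter cells ran from 0.87 to 1.02 over the members, and that of untreated reporter to untreated wild type from 0.76 to 1.05. The Isx-9 and the untreated reporter comparison share the DMSO library.

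**Figure D2:**
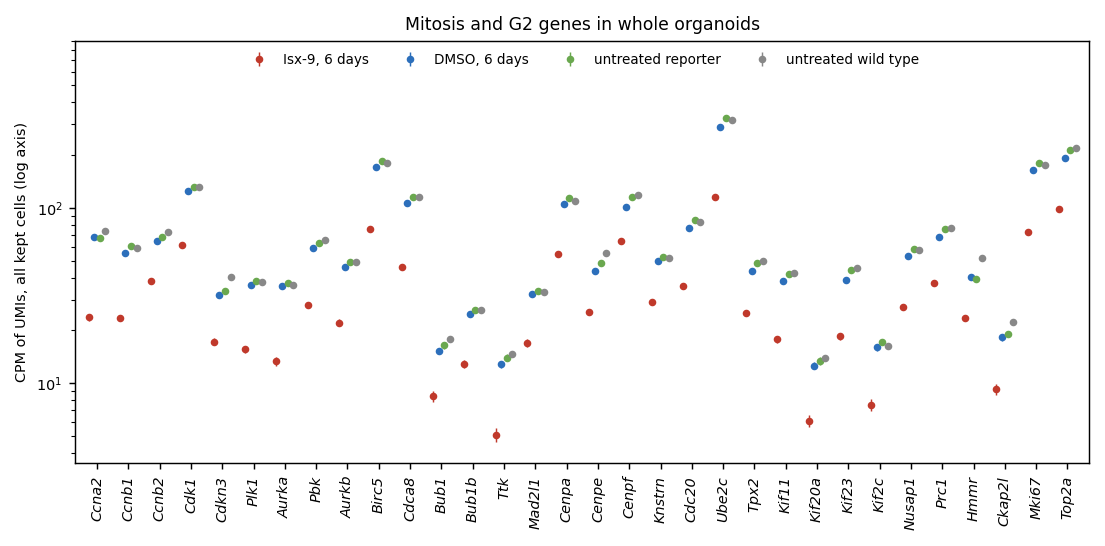
CPM of UMIs over all kept cells of each single-cell library, on a log axis, for the 32 members ordered by role, with exact Poisson 95% intervals for counting error. The Isx-9 point of every member lies below the points of the DMSO, untreated reporter and untreated wild-type libraries.

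The lowest ratios were those of Ccna2, Aurka, Ttk and Ube2c. Ccna2 stood at 23.7 CPM in Isx-9 cells, 68.6 in DMSO, 67.7 in untreated reporter and 73.5 in untreated wild-type cells, a ratio of Isx-9 to DMSO of 0.35 (0.33 to 0.36). Aurka stood at 13.3 in Isx-9, 35.8 in DMSO, 37.4 in untreated reporter and 36.2 in wild-type cells, a ratio of 0.37 (0.35 to 0.40). For Ttk, the checkpoint kinase Mps1, the values were 5.06 in Isx-9, 12.8 in DMSO, 14.0 in untreated reporter and 14.7 in wild-type cells, with a ratio of 0.40 (0.36 to 0.44). In each case the 3 control libraries lay close together. Ube2c stood at 116 in Isx-9, 292 in DMSO, 327 in untreated reporter and 318 in wild-type cells, a ratio of 0.40 (0.39 to 0.41).

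The highest ratios, still below 1, were those of Cenpf, Ccnb2, Hmmr and Cenpe. Cenpf, a kinetochore and nuclear matrix protein, stood at 64.7 in Isx-9, 102 in DMSO, 115 in untreated reporter and 119 in wild-type cells, a ratio of 0.64 (0.62 to 0.66). Ccnb2, the second B-type cyclin, had a ratio of 0.59 (0.56 to 0.61), with 38.2 in Isx-9, 65.1 in DMSO, 68.1 in untreated reporter and 73.2 in wild-type cells. The hyaluronan receptor and spindle protein Hmmr stood at 23.5 in Isx-9, 40.2 in DMSO, 39.3 in untreated reporter and 51.7 in wild-type cells (ratio 0.58, 0.55 to 0.61). Here the control lines themselves differed, with untreated reporter below wild type. Cenpe, a kinetochore motor, stood at 25.5 in Isx-9, 43.9 in DMSO, 48.8 in untreated reporter and 55.7 in wild-type cells (ratio 0.58, 0.55 to 0.61).

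Mki67 stood at 72.9 CPM in Isx-9, 164 in DMSO, 181 in untreated reporter and 177 in wild-type cells, a ratio of 0.45 (0.43 to 0.46). Top2a stood at 98.3 in Isx-9, 193 in DMSO, 215 in untreated reporter and 219 in wild-type cells, a ratio of 0.51 (0.50 to 0.52). Both were among the members that did not pass in stem cells at 6 hours. The mitotic drivers Ccnb1 and Cdk1 had ratios of 0.43 (0.41 to 0.45) and 0.49 (0.48 to 0.51), and Cdc20 had 0.47 (0.45 to 0.48). Cdkn3, which rose in stem cells at 6 hours, had a ratio of 0.55 (0.51 to 0.58).

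By role, the summed ratio was lowest for the activators of the anaphase-promoting complex at 0.41, followed by the passenger complex at 0.44, Mki67 at 0.45, cyclins and kinases at 0.46, spindle proteins at 0.52 and kinetochore proteins at 0.56. The interval of Mki67 overlaps those of both its neighbours in this order, and no other neighbours overlap.

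Fewer cells held these transcripts. After thinning each cell to 3000 UMIs, so that depth is equal, 8.94% of 8701 Isx-9 cells were Top2a-positive (at least 1 UMI, exact interval 8.35% to 9.56%), against 26.7% of 8361 DMSO cells (25.8% to 27.7%). The untreated reporter library held 29.5% and the untreated wild-type library 27.2%. Thinning left out 506 Isx-9 and 607 DMSO cells with fewer UMIs. Without thinning the shares were 15.5% in Isx-9 and 43.9% in DMSO cells. With at least 2 Top2a UMIs required they were 4.49% in Isx-9 and 12.6% in DMSO cells, and with the called doublets kept 9.60% in Isx-9 and 26.7% in DMSO cells. Chosen by Mki67 in place of Top2a, an alternative added after seeing the data, they were 8.64% in Isx-9 and 25.4% in DMSO cells.

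The share differed between cells that carried different marker genes (at least 2 UMIs of the marker after thinning). Cells with Chgb made up 48.7% of Isx-9 and 4.54% of DMSO cells, and 2.31% of them (98 of 4237) in Isx-9 and 4.21% (16 of 380) in DMSO were Top2a-positive. Cells with Neurog3, the transcription factor of enteroendocrine progenitors, made up 18.97% of Isx-9 and 1.79% of DMSO cells, with Top2a in 1.76% (29 of 1651) in Isx-9 and 7.33% (11 of 150) in DMSO. In the untreated libraries 9.51% of Chgb-positive cells in reporter and 8.04% in wild-type organoids were Top2a-positive, and 8.77% of Neurog3-positive cells in reporter and 4.79% in wild type. The Isx-9 share was thus the lowest of the 4 libraries for both markers, though not beyond every interval. For Chgb the Isx-9 interval (1.88% to 2.81%) overlapped that of DMSO (2.43% to 6.75%). For Neurog3 it (1.18% to 2.51%) overlapped that of wild type (2.09% to 9.22%). The median depth of Chgb-positive cells was 7358 UMIs in Isx-9 and 8322 in DMSO. Whether UMIs from outside these cells contribute was not tested, nor was the part of the doublets removed almost only from the Isx-9 library.

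Cells with crypt markers also held less Top2a in the Isx-9 library. Among cells with Lgr5, which made up 13.8% of Isx-9 and 9.77% of DMSO cells, 12.3% (10.5% to 14.3%) were Top2a-positive in Isx-9 and 30.7% (27.6% to 34.0%) in DMSO. Among cells with Olfm4, another stem cell marker, the shares were 17.3% (14.5% to 20.3%) in Isx-9 and 34.0% (32.6% to 35.4%) in DMSO, while such cells themselves were 7.98% of Isx-9 and 54.1% of DMSO cells. The intervals of the 2 libraries do not overlap for either marker. In cells with the Paneth gene Lyz1 the shares were 2.18% (1.09% to 3.87%) in Isx-9 and 14.0% (11.3% to 17.1%) in DMSO. For the tuft cell marker Dclk1 there were 0 of 29 Isx-9 cells, which allows a share of up to 10.3% when a count of 0 is read as at most 3 cells and up to 11.9% by the exact interval, and 9.63% of 187 DMSO cells. Cells with Muc2, Alpi or Fabp1 numbered 3, 5 and 2 in the Isx-9 library, too few for a share.

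**Figure D3:**
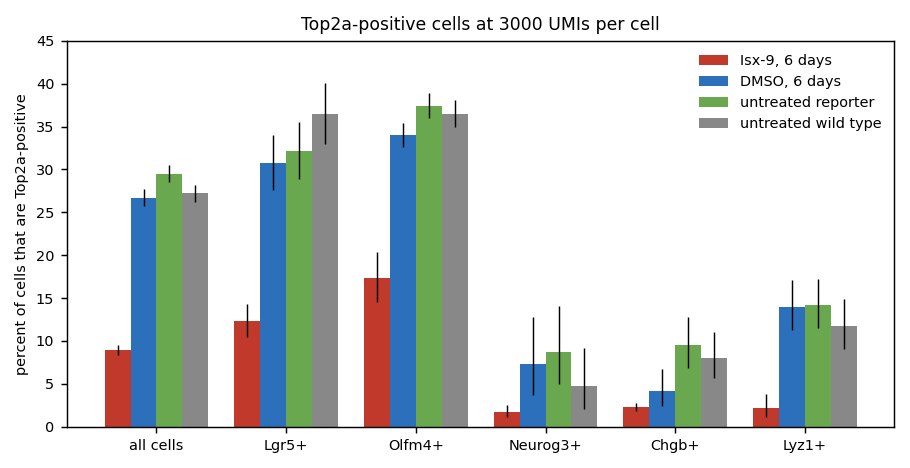
Percent of cells with at least 1 Top2a UMI after thinning to 3000 UMIs, over all cells and over cells with at least 2 UMIs of Lgr5, Olfm4, Neurog3, Chgb or Lyz1, with exact binomial 95% intervals, for Isx-9, DMSO, untreated reporter and untreated wild-type libraries from left to right. The Isx-9 bar is lowest in each of the sets drawn, from 8.94% against 26.7% in DMSO over all cells to 2.31% against 4.21% in Chgb-positive cells, where the intervals meet.

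Within Top2a-positive cells the picture changed. The 778 Isx-9 cells held 4484 CPM of the 31 other members and the 2233 DMSO cells 3968, a ratio of 1.13 (1.12 to 1.14). The untreated reporter cells held 4090 and the wild-type cells 4455, so under the main settings the Isx-9 value lay above all 3 control libraries, by little over wild type. This order was not examined under other settings. The ratio to DMSO was smaller with the called doublets kept and with the choice on unthinned counts, as given below. None of the 31 members passed 1.5-fold in either direction, against 21.9% of 11349 genes higher and 8.13% lower. Choosing cells by Top2a, itself a member, picked cells rich in the other members in both libraries. The share of all genes is thus not a like background, nor was it matched to the members' level. The median ratio was 1.15 over the members and 1.06 over all genes. Median depth was alike, at 18194 UMIs per Top2a-positive cell in Isx-9 and 17957 in DMSO.

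Most members were slightly higher. The ratio was above 1 for 28 of the 31 and below 1 for Ccna2, Aurka and Ube2c, and the counting interval lay above 1 for 24, below 1 for 2 and held 1 for 5. The share of all genes above 1 was not computed, but their median ratio of 1.06 also lay above 1. Between control libraries the members' ratios ran from 0.92 to 1.08 for DMSO over untreated reporter and from 0.69 to 0.98 for untreated reporter over wild type. Keeping the called doublets, 135 of which were Top2a-positive in Isx-9, lowered the ratio of the sum to 1.06 with 24 members above 1, and choosing cells on unthinned counts gave 1.02 with 21 above 1.

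The highest ratios were those of Prc1, Bub1, Cenpf and Tpx2. Prc1, which bundles the antiparallel microtubules of the spindle midzone, stood at 209 CPM in the Top2a-positive cells in Isx-9, 149 in DMSO, 157 in untreated reporter and 169 in wild type, a ratio of 1.40 (1.34 to 1.47). Bub1, a checkpoint kinase, stood at 41.2 in Isx-9, 30.7 in DMSO, 31.2 in untreated reporter and 35.3 in wild type, a ratio of 1.34 (1.22 to 1.49). Cenpf stood at 286 in Isx-9, 212 in DMSO, 227 in untreated reporter and 255 in wild type, also 1.34 (1.29 to 1.40). Tpx2, the activator of Aurora A on the spindle, stood at 122 in Isx-9, 91.2 in DMSO, 96.0 in untreated reporter and 104 in wild type (1.34, 1.27 to 1.42). For all 4 genes the Isx-9 value exceeded the 3 control libraries.

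The lowest ratios were those of Ccna2, Aurka, Ube2c and Mki67. Ccna2 stood at 114 in Isx-9, 128 in DMSO, 119 in untreated reporter and 142 in wild type, a ratio of 0.89 (0.84 to 0.94). Aurka stood at 71.8 in Isx-9, 76.0 in DMSO, 75.4 in untreated reporter and 77.7 in wild type, 0.94 with an interval of 0.88 to 1.01 that holds 1. Ube2c stood at 546 in Isx-9, 575 in DMSO, 606 in untreated reporter and 638 in wild type, 0.95 (0.93 to 0.97). Each of these 3 was lowest in the Isx-9 library. They were also among the 4 lowest ratios over all cells. Mki67 stood at 346 in Isx-9, 336 in DMSO, 354 in untreated reporter and 370 in wild type, a ratio of 1.03 (0.996 to 1.065), inside the range of the controls. Ccnb1, Cdk1 and Cdc20 had ratios of 1.12 (1.05 to 1.19), 1.26 (1.22 to 1.31) and 1.06 (1.01 to 1.12).

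**Figure D4:**
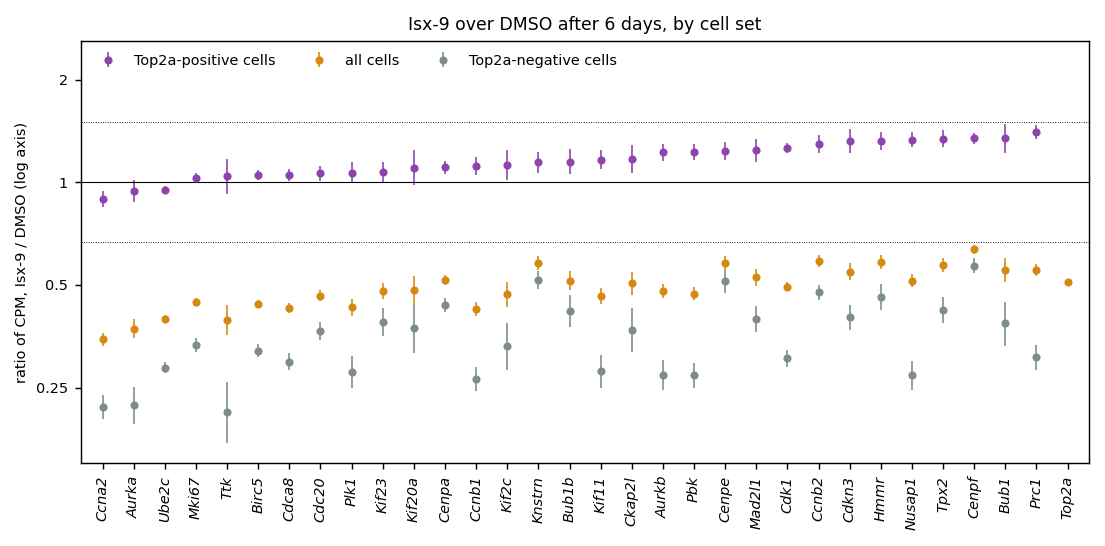
Ratio of CPM, Isx-9 over DMSO, on a log axis with exact 95% counting intervals, for Top2a-positive, all and Top2a-negative cells, members ordered by their ratio in Top2a-positive cells (Top2a, which chose the cells, is shown for all cells only). Dotted lines mark 1.5-fold in either direction, all-cell ratios lie between 0.35 and 0.64 and ratios in Top2a-positive cells between 0.89 and 1.40.

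By role, the summed ratio in Top2a-positive cells was highest for spindle proteins at 1.27 (1.244 to 1.298) and kinetochore proteins at 1.22 (1.192 to 1.244). It was 1.15 for cyclins and kinases, 1.08 for the passenger complex, 1.03 for Mki67 and 0.97 (0.95 to 0.99) for the activators of the anaphase-promoting complex. Over all cells too, the anaphase activators were lowest and the spindle and kinetochore proteins highest.

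In Top2a-negative cells the difference was wider than over all cells. The 31 other members summed to 401 CPM in 7923 Isx-9 cells and 1145 in 6128 DMSO cells, a ratio of 0.35, and every one was at least 1.5-fold lower, from 0.21 for Ttk to 0.57 for Cenpf. The share of all genes at least 1.5-fold lower was not computed for Top2a-negative cells. Such cells hold no Top2a UMI among 3000 and so include dividing cells in which it was not sampled.

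The number of the 31 other members that a thinned cell held was counted as well. Cells with 10 or more members made up 4.98% of Isx-9 cells (433 of 8701) and 13.9% of DMSO cells (1163 of 8361), with 15.5% in untreated reporter and 15.7% in wild type. Among Top2a-positive cells they were 42.3% in Isx-9 and 38.5% in DMSO, with 39.3% in untreated reporter and 44.3% in wild type, and the median was 8 members in both treatments. The Isx-9 distribution was broader. Top2a-positive cells with none of the other 31 members were 12.0% in Isx-9 and 5.69% in DMSO, against 4.84% in untreated reporter and 4.67% in wild type. Among all thinned cells 68.5% of Isx-9 and 32.4% of DMSO cells had no other member.

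**Figure D5:**
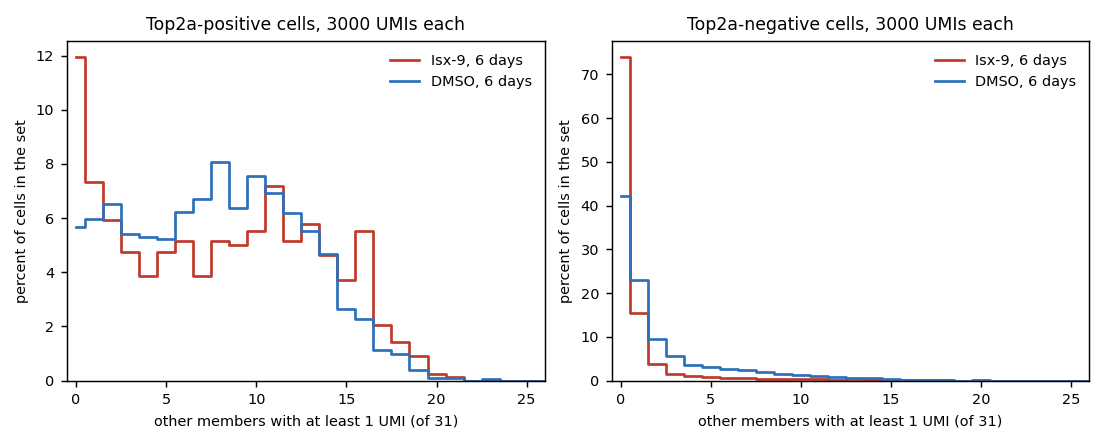
Percent of thinned cells (3000 UMIs each) by the number of the 31 other members with at least 1 UMI, for Top2a-positive cells on the left and Top2a-negative cells on the right, Isx-9 in red and DMSO in blue. In Top2a-positive cells the Isx-9 line is higher at 0 members (12.0% against 5.69%) while the median is 8 in both.

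Markers of other cell types differed between the Top2a-positive cells of the 2 libraries. Enteroendocrine markers summed to 1138 CPM in Isx-9 and 173 in DMSO, with all 10 of the list at least 1.5-fold higher, and 12.6% of Isx-9 and 0.72% of DMSO Top2a-positive cells had at least 2 Chgb UMIs. Stem cell markers summed to 2063 in Isx-9 and 3694 in DMSO, with 1 of 10 at least 1.5-fold lower (Olfm4) and 4 higher. Goblet markers summed to 192 in Isx-9 and 1567 in DMSO, with all 7 lower, and Paneth markers to 179 in Isx-9 and 1801 in DMSO, with 6 of 7 lower. The Isx-9 cells thus carried more enteroendocrine and less goblet and Paneth RNA. The same held in Top2a-negative cells, with median ratios of 6.58 for enteroendocrine, 0.089 for goblet and 0.139 for Paneth markers. In Top2a-positive cells these medians were 6.51, 0.048 and 0.197. There, 6 of 9 enterocyte markers with at least 100 UMIs were lower and 1 higher, and 5 of 6 such tuft markers were lower and 1 higher. Mesenchymal markers summed to 261 in Isx-9 and 5.24 in DMSO, nearly all of it Vim with 3466 UMIs in Isx-9 and 174 in DMSO. Of the others, Col1a1 had 38 UMIs in Isx-9 and 1 in DMSO, Pdgfra 30 in Isx-9 and 2 in DMSO, Dcn 8 in Isx-9 and 0 in DMSO and Col3a1 2 in Isx-9 and 0 in DMSO. Pdgfrb had 10 UMIs in Isx-9 and 37 in DMSO, or 0.73 CPM in Isx-9 and 0.91 in DMSO. Immune markers summed to 2.35 in Isx-9 and 2.40 in DMSO. The part of this mixture in the members' ratios was not tested.

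The companion lists followed the members less closely in single cells. Over all cells the summed ratio was 0.63 for centromere proteins, 0.63 for S phase genes, 0.65 for spindle and cytokinesis genes, 0.68 for kinetochore genes, 0.72 for mitotic entry, 0.77 for centrosome genes, 0.87 for condensin and cohesin, 0.89 for the transcriptional regulators and 0.93 for the anaphase-promoting complex. At least 1.5-fold lower were 15 of 18 spindle, 15 of 22 kinetochore and 2 of 17 anaphase-promoting complex genes, against 9.72% of all 14419 genes. Of those 17 genes 2 (Anapc4 and Cdc16) were at least 1.5-fold higher, against 40.1% of all genes. Securin was also higher, with 62.9 CPM of Pttg1 in Isx-9 and 24.9 in DMSO cells, a ratio of 2.52 (2.41 to 2.63). It had risen in stem cells at 6 hours. Mybl2 and Foxm1 had ratios of 0.47 (0.42 to 0.51) and 0.45 (0.40 to 0.50). In Top2a-positive cells the summed ratios of the 9 lists lay between 1.05 and 1.19.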

How the data were processed

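Bulk values are whole-number counts per gene as deposited, made with Trim Galore 0.6.4, HISAT2 and HTSeq 0.12.4 on GRCm38 per the submitters' processing notes. The NEBNext Ultra kit does not mark strand, and the gene annotation of the counting is not given in the sources used here. Single-cell values are UMI counts that the authors deposited (Cell Ranger 3.1.0, Seurat 3.1.5 per the same notes). The authors' deposited table (DESeq2 1.24.0) gives a signal (mean normalized count), log2 fold changes, a score (Wald statistic) and p-values. The 6 ATAC-seq samples were not analysed here.

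Bulk counts were tested in R 4.3.3 with edgeR 4.0.16 (filterByExpr, TMM, quasi-likelihood, 2 against 2 libraries, no covariates), checked on simulated data. There, of 200 changed genes drawn from all tested genes, 44% were recovered at 1.5-fold and 64.5% at 2-fold, with 6 and 11 false calls. The 200 genes were not matched to the members' level, so these rates do not give the recovery of members. Members with a fall as small as 0.22 passed. A member that did not pass is still not shown to be unchanged. DESeq2 1.42.0 was an alternative. Nothing in the labels shows that replicates were separate cultures, so p-values reflect the spread between libraries, which may be technical. Replicates differed by more than counting noise, with a chi-square per gene of 7.52 for Isx-9 and 9.28 for DMSO. Full bulk values are given for the 6 passing members with the largest absolute log2 fold changes and 8 preset members, and up to 4 passing members of each companion list are named. Cdc25b, Foxm1, Anapc4 and Cdc16 were named after their values were seen.

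Kept barcodes had 500 or more genes, 1000 or more UMIs and a mitochondrial share of no more than 20%, and Scrublet doublets were left out (scanpy 1.11.5, Python 3.11.15). Levels are CPM over the summed cells. Single-cell values are given for the 4 highest and 4 lowest ratios (at least 100 UMIs) and 5 preset members. Top2a-positive cells were chosen on counts thinned to 3000 UMIs, and their levels use all their UMIs. Intervals are 95% exact, a count of 0 is also given with a floor of 3 counts, and both cover counting error only. The members and lists were chosen with earlier results of these data known. Promoters are RefSeq sequences.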

Additional observations from a re-analysis of the deposited data

Results flagged for a closer look

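In 2 members the 6-hour and 6-day comparisons ran in opposite directions, with every library on its own side. Cdkn3 was higher in both Isx-9 bulk libraries than in both DMSO libraries (log2 fold change 0.62), while its ratio of Isx-9 to DMSO over all cells at 6 days was 0.55. Knstrn was also higher in both Isx-9 bulk libraries, by 0.046 and without passing the test, and its ratio at 6 days was 0.58. Sorted Lgr5-EGFP stem cells and whole Chgb-mCherry organoids differ in cells, genotype and time, the single cells have 1 library per condition, and the difference between the 2 comparisons was not tested.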

How the results depend on the processing

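Bulk results were recomputed under 9 alternatives. No called member changed direction, and 4 of 13 kept their call under all 9. The members lower and higher were 5 and 1 with library size alone, 10 and 1 with DESeq2, with no low-count filter and with the replicate block, and 11 and 1 with RLE size factors. Leaving out each library in turn gave 5 to 9 lower and 0 to 1 higher. The members' median log2 fold change was -0.16 with DESeq2, -0.15 with RLE size factors and -0.039 with library size alone, and -0.20 to -0.14 with 1 library left out; the main value varied by 0.0096 (SD) over the 4 pairs of libraries. Replicate numbers did not pair the libraries (correlation of deviations 0.011), so the block is an alternative only.

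Directions turned only in 7 members that had not passed, and none of the turned values was beyond 0.12. Mki67 was at 0.0023 with RLE size factors and 0.11 with library size alone, and ran from -0.036 to 0.046 with 1 library left out (positive without Isx-9 replicate 2). Ccnb2 was at 0.0077 with DESeq2, 0.013 with RLE and 0.12 with library size alone, and ran from -0.081 to 0.091 with 1 library left out (positive without replicate 1 of either group). Cenpa was at 0.0026 with RLE and 0.11 with library size alone, and ran from -0.059 to 0.041 (positive without Isx-9 replicate 1 or DMSO replicate 2). Cenpe was at 0.0017 with library size alone. With 1 library left out Hmmr ran from -0.070 to 0.086 (negative without replicate 1 of either group), Tpx2 from -0.023 to 0.039 and Ckap2l from -0.040 to 0.053 (both negative without DMSO replicate 2), and Tpx2 was at -0.0028 without the filter. Companion lists had 3 to 8 lower for mitotic entry, 2 to 5 for kinetochore, 0 to 4 for centromere, 5 to 8 for spindle, 5 to 9 for centrosome, 5 to 8 for regulators and 6 to 10 for S phase genes, and 0 to 3 spindle, 0 to 2 centrosome and 2 to 4 regulator genes higher.

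In single cells, the all-cell ratio of the summed members was 0.490 with doublets kept, 0.494 over every deposited barcode, 0.474 with a stricter cell filter and 0.381 with each cell weighted equally. All 128 member ratios under these settings stayed at least 1.5-fold below 1. In Top2a-positive cells the ratio of the sum was 1.06 with doublets kept, 1.07 over every barcode, 1.08 with equal weights, 1.02 with unthinned choice, 1.08 at 6000 UMIs and 1.18 with at least 2 Top2a UMIs, and none of 247 member ratios reached 1.5-fold. The share of Top2a-positive cells was 15.5% in Isx-9 and 43.9% in DMSO without thinning, 13.3% in Isx-9 and 37.7% in DMSO at 6000 UMIs, 4.49% in Isx-9 and 12.6% in DMSO with at least 2 UMIs, 9.60% in Isx-9 and 26.7% in DMSO with doublets kept, and 9.81% in Isx-9 and 27.2% in DMSO over every barcode. By Mki67 it was 8.64% in Isx-9 and 25.4% in DMSO. The causes were not tested. Single-cell ratios have no replicate check.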

Other observations

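The control libraries also differed among themselves. In DMSO over untreated reporter cells the counting interval lay below 1 for 26 of 32 members, with a median ratio of 0.93, so the members stood slightly lower in the vehicle library. Untreated reporter cells held less Hmmr than wild-type cells, with a ratio of 0.76 over all cells and 0.69 in Top2a-positive cells, and in those Top2a-positive cells all 31 members lay below wild type, with a median of 0.93. No shares over all genes were computed for these control comparisons. Whether the differences are particular to the members or common to most genes was therefore not tested. The 2 lines were 1 library each, so line, passage and library cannot be told apart.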
